A study of Homo sapiens with 12 samples.

Results

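The comparison set HL-60 cells after 4 days in 1 µM all-trans retinoic acid (ATRA; 4 d, 3 libraries) against HL-60 cells after 2 days in 1 µM ATRA (2 d, 3 libraries), across all genes. These 6 libraries of the 12 in the series are those labelled 4 d and 2 d. The step is also described as one of cell cycle exit, which is set against the data here. HL-60 is an established line of human promyelocytic leukemia cells. It matures toward neutrophils when ATRA binds its retinoic acid receptors. The other 6 libraries, 3 of cells before ATRA (0 h) and 3 of cells after 4 h in 1 µM ATRA, entered the fit for the spread and serve here for levels. All cells were grown in Iscove's medium with fetal bovine serum. Total RNA was the starting material for bulk sequencing, with its selection step not given, and reads were counted per gene. Whether the replicates of a time were grown apart is not in the labels. The p-values therefore measure the spread of these libraries, which may be technical. No untreated library of 2 or 4 days was used here, so time in ATRA and time in culture cannot be told apart.

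Cells that mature toward neutrophils leave the cell cycle. The retinoblastoma family and E2F factors switch off genes of DNA synthesis through E2F sites, and the DREAM complex holds down mitotic genes through the cell cycle genes homology region (CHR). Proteins of neutrophil granules are made in waves: primary (azurophil) granule proteins such as myeloperoxidase in promyelocytes, secondary and tertiary granule proteins later, and receptors of the cell surface in the last stages.

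Reads in genes numbered 10254085, 9372996 and 10965224 in 4 d replicates 1, 2 and 3, and 11562933, 13021237 and 7866757 in those of 2 d. The files listed 26364 genes, and 12671 passed the filter on low counts and were tested. Levels are CPM, a gene's reads scaled to 1 library size with TMM factors, and are compared only within a gene. All 10 markers of the HL-60 lineage passed the filter, among them SPI1, CD33 and ANPEP; 1 rose and 6 fell, and their summed level, most of it in the primary granule proteins MPO and PRTN3, was 10800 to 11700 CPM at 4 d, against 31500 to 39600 CPM at 2 d. Markers of 3 other groups of cell types were low or had no reads: of 19 erythroid and megakaryocyte markers 11 had 0 reads in all 6 libraries (HBB and PF4 among them), of 17 lymphoid markers 5 had 0 reads (MS4A1 and CD8A among them), and of 12 epithelial and fibroblast markers 7 had 0 reads (KRT5, CDH1 and DCN among them). The members of these lists that passed the filter summed to 25 to 26.7 CPM at 4 d and 31.2 to 33.1 CPM at 2 d for the erythroid list, and to 58.7 to 69.7 CPM at 4 d and 60.9 to 71.4 CPM at 2 d for the lymphoid list. Of the epithelial and fibroblast list only the collagen gene COL1A1 passed it, and it rose, with 12.6, 5.55 and 6.62 CPM at 4 d, against 2.14, 1.51 and 2.46 CPM at 2 d (2.03 ± 0.55); its edgeR adjusted p of 0.0159 passed the threshold of 0.05 no longer without 2 d replicate 1, 2 d replicate 2 or 4 d replicate 1, at up to 0.0815. Markers of 2 further groups were well above 0: the tested monocyte and macrophage markers summed to 3680 to 4120 CPM at 4 d and 2160 to 2830 CPM at 2 d, and the tested eosinophil, basophil and mast cell markers to 717 to 745 CPM at 4 d and 629 to 753 CPM at 2 d. One library stood apart: across genes, 4 d replicate 1 had a slope of 0.334 on the log2 scale per 10 points of GC content against its group mates, where 4 d replicates 2 and 3 had -0.225 and -0.109 and the 2 d libraries lay between -0.0645 and 0.0356. Of the libraries outside the comparison, 0 h replicate 2 (0.497) and 4 h replicate 3 (0.416) had the steepest such slopes, and 4 h replicate 1 had reads in 22265 genes where the remaining libraries had reads in 15198 to 15798. The biological coefficient of variation was 22% at 4 d and 10.9% at 2 d.

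Genes were tested with edgeR (quasi-likelihood test, Benjamini-Hochberg adjustment) and called at an adjusted p under 0.05. Of 12671 genes, 3374 (26.6%) were called. At 4 d, 1660 genes (13.1%) were higher and 1714 (13.5%) lower than at 2 d, and 1470 of the calls (11.6%) were of at least 2-fold, 854 higher (6.74%) and 616 lower (4.86%). The median log2 fold change over all genes tested was -0.0027, but it varied with GC content. In 5 groups of genes from the lowest to the highest GC content it was -0.12, -0.143, -0.0743, -0.0033 and 0.127. Medians of gene lists given here are therefore to be read against this range, not against 0 alone. List medians within or near it cannot be told apart from the trend with GC content. Without 4 d replicate 1 the count of called genes was 2702, with 1322 higher and 1380 lower. It was 2245 without 2 d replicate 1 and 2110 without 2 d replicate 2, and 0 of the 3374 genes changed direction in any of the 18 alternatives that tested them. In the results that follow, values in brackets after the levels are log2 fold changes of 4 d over 2 d ± SE, and rose and fell are used of called genes. In bulk RNA fewer cells of a type and less RNA per cell cannot be told apart.

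The genes that rose most, among those at a mean of 10 CPM or more whose libraries did not overlap, were of several kinds: signalling scaffolds, transporters, receptors and an enzyme of retinoid breakdown. CARD14, a scaffold protein of NF-kappaB signalling, had 36.6, 35.5 and 34.9 CPM at 4 d, against 2.14, 2.35 and 1.72 CPM at 2 d. Its log2 fold change was 4.08 ± 0.32 (SE; edgeR adjusted p = 5.97e-06), and the low level at 2 d lay close to that of 0 h (1.33 ± 0.502 CPM, SD, n = 3). The anion transporter SLC26A11 had 441, 189.5 and 222 CPM at 4 d, against 19.7, 17.3 and 25 CPM at 2 d, a log2 fold change of 3.79 ± 0.40 in which replicate 1 was the highest of the 4 d libraries by a wide margin. ALS2CL, a relative of the guanine nucleotide exchange factor alsin, had 1508, 922 and 1024 CPM at 4 d, against 71.7, 88.7 and 95.4 CPM at 2 d (3.75 ± 0.29). DAAM2, a formin that acts on actin, had 44.4, 36.1 and 39.9 CPM at 4 d, against 2.06, 3.10 and 2.46 CPM at 2 d and no read at 0 h (3.97 ± 0.44). The groups stood far apart in each of these 4 genes, and replicate 1 led at 4 d in all of them. IGSF6, an immunoglobulin superfamily receptor, had 13.6, 21.9 and 21.2 CPM at 4 d, against 1.54, 1.06 and 1.11 CPM at 2 d (3.92 ± 0.32). AMICA1, the junctional adhesion molecule JAML of leukocytes, had 374, 311 and 311 CPM at 4 d, against 28.5, 30.1 and 29.7 CPM at 2 d (3.49 ± 0.19). In these genes, too, the lowest 4 d library lay several times above the highest 2 d library. HSPA7 had 106, 42.2 and 51.6 CPM at 4 d, against 4.45, 5.60 and 4.80 CPM at 2 d (3.74 ± 0.44); it is a pseudogene, and its likeness to HSPA6 leaves the assignment of its reads uncertain.

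The genes that fell most were led by proteases of the primary granule. PRTN3, proteinase 3, had 417, 279.6 and 335 CPM at 4 d, against 2665, 2056 and 2587 CPM at 2 d, a log2 fold change of -2.82 ± 0.33 (SE; edgeR adjusted p = 7.88e-05). CTSG, cathepsin G, had 16.7, 18.6 and 22.5 CPM at 4 d, against 116, 126 and 111 CPM at 2 d (-2.61 ± 0.20). Outside the granules, CD82, a tetraspanin of the cell surface, had 9.46, 9.91 and 12.3 CPM at 4 d, against 61.0, 56.8 and 50.7 CPM at 2 d (-2.41 ± 0.18). KCNN4, a calcium-activated potassium channel, had 6.44, 4.36 and 6.62 CPM at 4 d, against 26.1, 24.4 and 29.1 CPM at 2 d (-2.19 ± 0.27). The GTPase-activating protein ARHGAP23 (-2.34 ± 0.25), the receptor LRP3 (-2.28 ± 0.38), the mixed lineage kinase KIAA1804 (-2.23 ± 0.23) and PRRT4 (-2.10 ± 0.52) completed the 10 largest declines together with PRSS57 and ELANE. PRRT4 also showed the widest spread among these at 4 d, with 32.9, 11.6 and 13.3 CPM at 4 d, against 87.2, 75.6 and 84.5 CPM at 2 d; replicate 1 was the library nearest to 2 d.

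**Figure D1:**
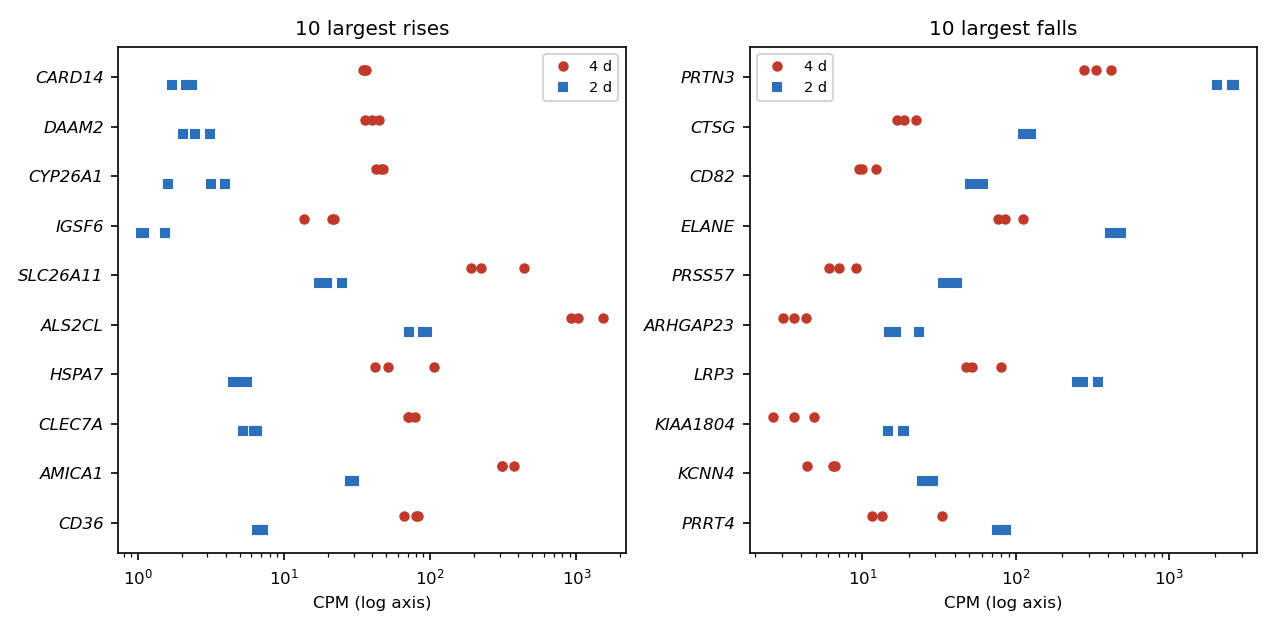
CPM on a log axis of the 10 genes with the largest rise (left) and the 10 with the largest fall (right), with circles for the 3 libraries of 4 d and squares for the 3 libraries of 2 d. The groups do not overlap in any of these genes, which the choice of genes required; SLC26A11, with 441, 189.5 and 222 CPM at 4 d, is among those with the widest spread.

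Genes of DNA replication fell almost throughout. Of the 47 tested members of the DNA replication list, which holds the helicase, its loaders, polymerases and clamp factors, 44 fell and 0 rose, with a median log2 fold change of -1.27, and all 47 had every 4 d library below every 2 d library. Libraries of the 2 times did not overlap in 48% of all genes tested, with 4 d below in 24.7% and above in 23.3%. The summed level of the members was 2390 to 2550 CPM at 4 d, against 5760 to 6120 CPM at 2 d, and had been 6510 to 7410 CPM at 0 h. The count was 45 without 4 d replicate 1 and 42 without 2 d replicate 2. Promoters are shown for 3 members of this list and 3 of the mitosis list, since the lists differed in the motifs their promoters held; they are the called members with the largest declines among those whose promoter was found and held an E2F or CHR match. They run 5′ to 3′ on the strand of the gene, from 250 bases before to 50 after the start (RefSeq, GRCh38.p14), with E2F or CHR matches in capitals: GINS2 at chr16:85688905-85689204 on the minus strand, MCM6 at chr2:135876394-135876693 on the minus strand, MCM2 at chr3:127598161-127598460 on the plus strand, SMC2 at chr9:104094059-104094358 on the plus strand, MAD2L1 at chr4:120066799-120067098 on the minus strand and CDCA5 at chr11:65083991-65084290 on the minus strand.
GINS2: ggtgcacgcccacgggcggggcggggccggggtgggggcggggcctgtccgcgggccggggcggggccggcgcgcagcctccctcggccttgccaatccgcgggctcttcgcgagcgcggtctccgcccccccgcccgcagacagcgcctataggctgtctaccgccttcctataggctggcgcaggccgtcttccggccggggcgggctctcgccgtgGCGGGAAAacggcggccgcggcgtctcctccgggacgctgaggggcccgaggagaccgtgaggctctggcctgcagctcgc
MCM6: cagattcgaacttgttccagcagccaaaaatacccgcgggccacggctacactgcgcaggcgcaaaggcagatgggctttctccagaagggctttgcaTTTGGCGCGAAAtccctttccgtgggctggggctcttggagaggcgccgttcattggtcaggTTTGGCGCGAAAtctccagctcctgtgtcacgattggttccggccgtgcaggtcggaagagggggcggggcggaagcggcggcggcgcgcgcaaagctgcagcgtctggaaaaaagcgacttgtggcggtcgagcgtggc
MCM2: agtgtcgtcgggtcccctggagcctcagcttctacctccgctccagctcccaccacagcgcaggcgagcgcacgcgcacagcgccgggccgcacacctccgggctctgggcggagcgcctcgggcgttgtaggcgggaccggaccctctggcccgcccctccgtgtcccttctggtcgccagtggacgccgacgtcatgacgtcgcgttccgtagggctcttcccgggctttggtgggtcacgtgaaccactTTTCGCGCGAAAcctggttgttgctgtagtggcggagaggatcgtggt
SMC2: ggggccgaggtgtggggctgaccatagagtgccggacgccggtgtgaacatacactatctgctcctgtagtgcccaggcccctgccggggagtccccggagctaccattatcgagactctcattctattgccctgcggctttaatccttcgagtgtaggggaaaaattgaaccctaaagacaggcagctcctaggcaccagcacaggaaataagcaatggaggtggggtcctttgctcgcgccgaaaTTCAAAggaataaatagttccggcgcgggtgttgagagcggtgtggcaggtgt
MAD2L1: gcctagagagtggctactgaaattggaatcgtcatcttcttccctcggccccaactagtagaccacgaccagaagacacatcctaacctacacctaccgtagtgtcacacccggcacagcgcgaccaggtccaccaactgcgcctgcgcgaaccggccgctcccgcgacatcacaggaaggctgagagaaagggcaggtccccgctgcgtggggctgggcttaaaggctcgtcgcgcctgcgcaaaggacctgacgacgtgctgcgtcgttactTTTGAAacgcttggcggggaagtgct
CDCA5: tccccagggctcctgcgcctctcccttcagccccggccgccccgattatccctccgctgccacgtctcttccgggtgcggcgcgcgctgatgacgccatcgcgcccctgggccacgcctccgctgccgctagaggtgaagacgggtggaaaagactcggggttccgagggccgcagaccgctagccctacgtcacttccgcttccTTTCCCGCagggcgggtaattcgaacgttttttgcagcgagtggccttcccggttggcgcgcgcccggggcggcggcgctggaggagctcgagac

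Motifs were searched on both strands. The letters for E2F were TTTCCCGC or TTTGGCGC or TTTCGCGC or TTTGCCGC. The CHR was searched as TTTGAA, the CCAAT box by the letters of its name and the E-box as CACGTG. In MCM6 and MCM2 the runs of 12 letters in capitals each hold overlapping E2F matches on opposite strands, and the CHR match of SMC2 and the E2F match of GINS2 lie on the strand not shown. Of the 41 DNA replication members with a promoter, 19 (46.3%) held an E2F match and 2 (4.88%) a CHR match. Of the 60 mitosis members with a promoter, 5 (8.33%) held an E2F match, 40 (66.7%) a CHR match and 42 (70%) a CCAAT box. Among all 35116 promoters of the same length, 3.31% held an E2F match, 15.2% a CHR match and 34.6% a CCAAT box, and among those of all genes tested the shares were 5.51%, 9.89% and 36.6%. E2F matches stood in 11.4% of promoters of genes at least 2-fold lower at 4 d and in 3.29% of those at least 2-fold higher, and CHR matches in 11.4% and 11.7% of the same 2 sets. A match describes the letters of the window, and no binding was measured.

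GINS2, a subunit of the GINS complex that activates the replicative helicase, fell most in the list, with 3.53, 5.16 and 4.18 CPM at 4 d, against 16.7, 18.2 and 15.4 CPM at 2 d. Its log2 fold change was -1.97 ± 0.22 (SE; edgeR adjusted p = 5.81e-05). The helicase subunits followed: MCM6 had 32.8, 51.6 and 52.4 CPM at 4 d, against 175, 180.4 and 148 CPM at 2 d (-1.88 ± 0.25). MCM2 had 97.5, 135 and 132 CPM at 4 d, against 484, 466 and 366 CPM at 2 d (-1.85 ± 0.21). MCM3 had 93.7, 99.2 and 102 CPM at 4 d, against 312, 318 and 288 CPM at 2 d (-1.64 ± 0.15). In each the highest 4 d library stood below the lowest 2 d library by more than the whole range of either group. MCM4 (-1.76 ± 0.22), the clamp loader subunits RFC3 (-1.73 ± 0.27) and DSCC1 (-1.57 ± 0.23) and the helicase loader CDC6 (-1.53 ± 0.20) fell as well. PCNA, the sliding clamp of the replication fork, had 71.6, 73.3 and 79.1 CPM at 4 d, against 139.6, 176 and 174 CPM at 2 d, a log2 fold change of -1.13 ± 0.15 (SE; edgeR adjusted p = 0.000142).

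Genes of recombination and Fanconi repair, which act at damaged forks, fell with them: 26 of 30 tested members fell and 0 rose, with a median of -0.945. CHEK1, the checkpoint kinase of S phase, had 16.1, 15.3 and 15.6 CPM at 4 d, against 40.2, 43.8 and 45.2 CPM at 2 d (-1.46 ± 0.13). Of 25 tested genes of nucleotide synthesis, 21 fell and 0 rose, with a median of -0.97. Unlike the replication list, this list had moved before: 18 members were called lower at 2 d than at 0 h, with a median of -0.727. TK1, thymidine kinase, had 77.6, 65.7 and 71.2 CPM at 4 d, against 221, 208 and 185 CPM at 2 d (-1.52 ± 0.24). PAICS of purine synthesis (-1.50 ± 0.19) and the folate enzyme MTHFD1 (-1.40 ± 0.21) fell also.

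Mitotic genes had a smaller median decline than replication genes and fell nearly as widely. Of the 70 tested members of the mitosis list, 65 fell and 0 rose, with a median log2 fold change of -0.81, and all 70 had every 4 d library below every 2 d library. The summed level was 3850 to 3960 CPM at 4 d, against 6540 to 7010 CPM at 2 d. At 0 h it had been 5590 to 6070 CPM, so that the 2 d libraries were above those of 0 h and the 4 d libraries below both. Without 4 d replicate 1, 58 members fell, and without 2 d replicate 2, 48 fell.

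MYBL2, the B-MYB factor that turns on mitotic genes, had 106, 84.0 and 87.0 CPM at 4 d, against 240.3, 232 and 229.7 CPM at 2 d (-1.34 ± 0.19). SPC24, a kinetochore protein, had 7.07, 6.94 and 8.71 CPM at 4 d, against 19.3, 19.9 and 17.7 CPM at 2 d (-1.32 ± 0.17). CCNA2, cyclin A2, had 22.9, 40.1 and 40.9 CPM at 4 d, against 90.2, 80.8 and 66.0 CPM at 2 d (-1.19 ± 0.27), with 4 d replicate 1 the lowest library. Cyclin A2 was thus furthest from 2 d in the library that stood apart by GC content. The condensin subunit SMC2 had 6.96, 13.8 and 14.6 CPM at 4 d, against 34.5, 30.9 and 21.6 CPM at 2 d (-1.30 ± 0.32). The spindle checkpoint protein MAD2L1 had 18.6, 26.7 and 25.6 CPM at 4 d, against 51.4, 61.4 and 50.1 CPM at 2 d (-1.20 ± 0.18). The cohesion factor CDCA5 had 59.3, 58.6 and 59.7 CPM at 4 d, against 134, 129.7 and 127 CPM at 2 d (-1.14 ± 0.14). The groups did not overlap in any of these 6 genes, and CDCA5 had the narrowest spread at 4 d. The centromere proteins CENPM (-1.11 ± 0.21) and CENPN (-1.10 ± 0.18) fell similarly.

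MKI67, the proliferation marker Ki-67, fell less far, to a mean at 4 d that was not below that of 0 h. It had 279.7, 309 and 304 CPM at 4 d, against 586, 462 and 467 CPM at 2 d, a log2 fold change of -0.76 ± 0.16 (SE; edgeR adjusted p = 0.00436), while the 0 h libraries averaged 266 ± 32.8 CPM (SD, n = 3). Set against the description as cell cycle exit, the libraries showed lower transcript levels of replication and mitosis genes at 4 d than at 2 d, without their disappearance; cell numbers and cell cycle phases were not measured.

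**Figure D2:**
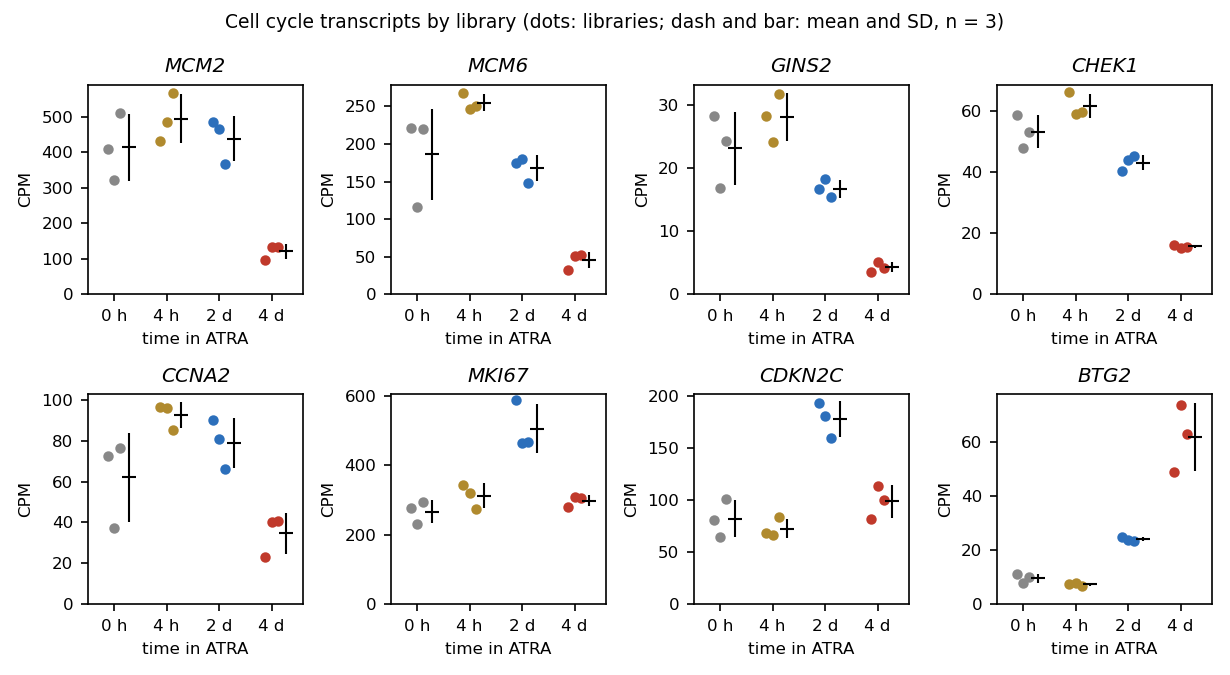
CPM of 8 cell cycle genes in each of the 12 libraries by time in ATRA, with dots for libraries and the dash and bar for the mean and SD of 3. MCM2, MCM6, GINS2, CHEK1 and CCNA2 have their lowest mean at 4 d; MKI67 and CDKN2C peak at 2 d and at 4 d stand nearer their 0 h level; BTG2 is highest at 4 d.

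The G1 machinery fell in part. Of 20 tested G1 cyclins, kinases and E2F factors, 12 fell and 0 rose, with a median of -0.99. CDC25A, the phosphatase that activates CDK2, had 20.1, 16.1 and 17.6 CPM at 4 d, against 50.8, 44.8 and 44.7 CPM at 2 d (-1.39 ± 0.15). E2F1, an activating E2F factor, had 46.0, 33.9 and 30.9 CPM at 4 d, against 84.6, 79.9 and 93.0 CPM at 2 d (-1.22 ± 0.24). CDK6 (-1.18 ± 0.26) and CCNE1, cyclin E1 (-1.20 ± 0.23), fell too. MYC, which drives growth genes, had 238, 159 and 182 CPM at 4 d, against 404, 351 and 379 CPM at 2 d, a log2 fold change of -0.97 ± 0.21 (SE; edgeR adjusted p = 0.00413), after a 0 h level of 1666 ± 378 CPM (SD, n = 3).

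The list that joins inhibitors of cyclin-dependent kinases (CDK) with pocket proteins and antiproliferative proteins did not move as a class. Of its 25 tested members, 5 rose and 6 fell, with a median of -0.095. These counts do not describe the inhibitors alone. Without 2 d replicate 2, or without 4 d replicate 3, 3 members were called higher in place of 5. CDKN1A, or p21, had 1.04, 1.49 and 1.92 CPM at 4 d, against 0.942, 1.51 and 1.48 CPM at 2 d, and its log2 fold change of 0.19 ± 0.36 was not called (edgeR adjusted p = 0.734). CDKN1B, or p27, had 50.6, 74.4 and 68.4 CPM at 4 d, against 74.4, 70.4 and 61.7 CPM at 2 d (-0.10 ± 0.18, edgeR adjusted p = 0.73), and CDKN2D, or p19, 61.9, 43.9 and 47.8 CPM at 4 d, against 50.5, 46.3 and 49.1 CPM at 2 d (0.07 ± 0.21, edgeR adjusted p = 0.824). CDKN1A rests on few reads, and its SE of 0.36 leaves room for a change in either direction. The libraries of both times overlapped in all 3 inhibitors, and the sign of these values depended on the setting. CDKN2C, or p18, fell instead, with 82.1, 114 and 100.4 CPM at 4 d, against 193, 181 and 159 CPM at 2 d (-0.85 ± 0.19). RBL1, the p107 pocket protein, had 15.8, 26.1 and 25.2 CPM at 4 d, against 56.1, 48.7 and 56.8 CPM at 2 d (-1.27 ± 0.22). LIN9, a core subunit of DREAM and of the MYB complex, had 4.05, 4.16 and 5.75 CPM at 4 d, against 11.2, 9.46 and 9.23 CPM at 2 d (-1.09 ± 0.20). BTG2, an antiproliferative protein that promotes mRNA deadenylation, rose, with 48.6, 73.5 and 63.0 CPM at 4 d, against 24.7, 23.8 and 23.4 CPM at 2 d (1.36 ± 0.17). In these genes the groups did not overlap, and the spread within 2 d was small for BTG2. MXD1, which competes with MYC for MAX, had 66.8, 118 and 107 CPM at 4 d, against 43.1, 45.0 and 45.7 CPM at 2 d (1.12 ± 0.21).

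The histone genes with enough reads to test did not follow the replication list. Only 10 of 28 histone symbols passed the filter, and 7 of them rose and 0 fell, with a median of 1.31. Their summed level was 94.6 to 106 CPM at 4 d, against 39.5 to 40.5 CPM at 2 d. Others had almost no reads, such as HIST1H3B (1 at 4 d, 0 at 2 d) and HIST1H4C (6 and 8). Histones as a class therefore could not be compared with that list. HIST1H2AC, an H2A gene, had 7.58, 16.9 and 12.5 CPM at 4 d, against 3.94, 4.01 and 3.32 CPM at 2 d (1.71 ± 0.33). HIST2H2BE, an H2B gene, had 8.21, 12.3 and 11.4 CPM at 4 d, against 3.17, 3.40 and 4.55 CPM at 2 d (1.53 ± 0.32). Near-identical copies leave the assignment of histone reads uncertain, and how RNA was selected for the libraries is not given in the sources used here. Of 38 tested genes of the nuclear envelope and chromatin architecture, 6 rose and 13 fell. LMNB1, lamin B1, had 54.6, 73.4 and 70.8 CPM at 4 d, against 158, 159.9 and 137 CPM at 2 d (-1.19 ± 0.18), and the cohesin subunit SMC1A fell also (-1.19 ± 0.24), whereas the giant linker proteins SYNE2 (2.55 ± 0.40) and SYNE1 (1.40 ± 0.31) rose.

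**Figure D3:**
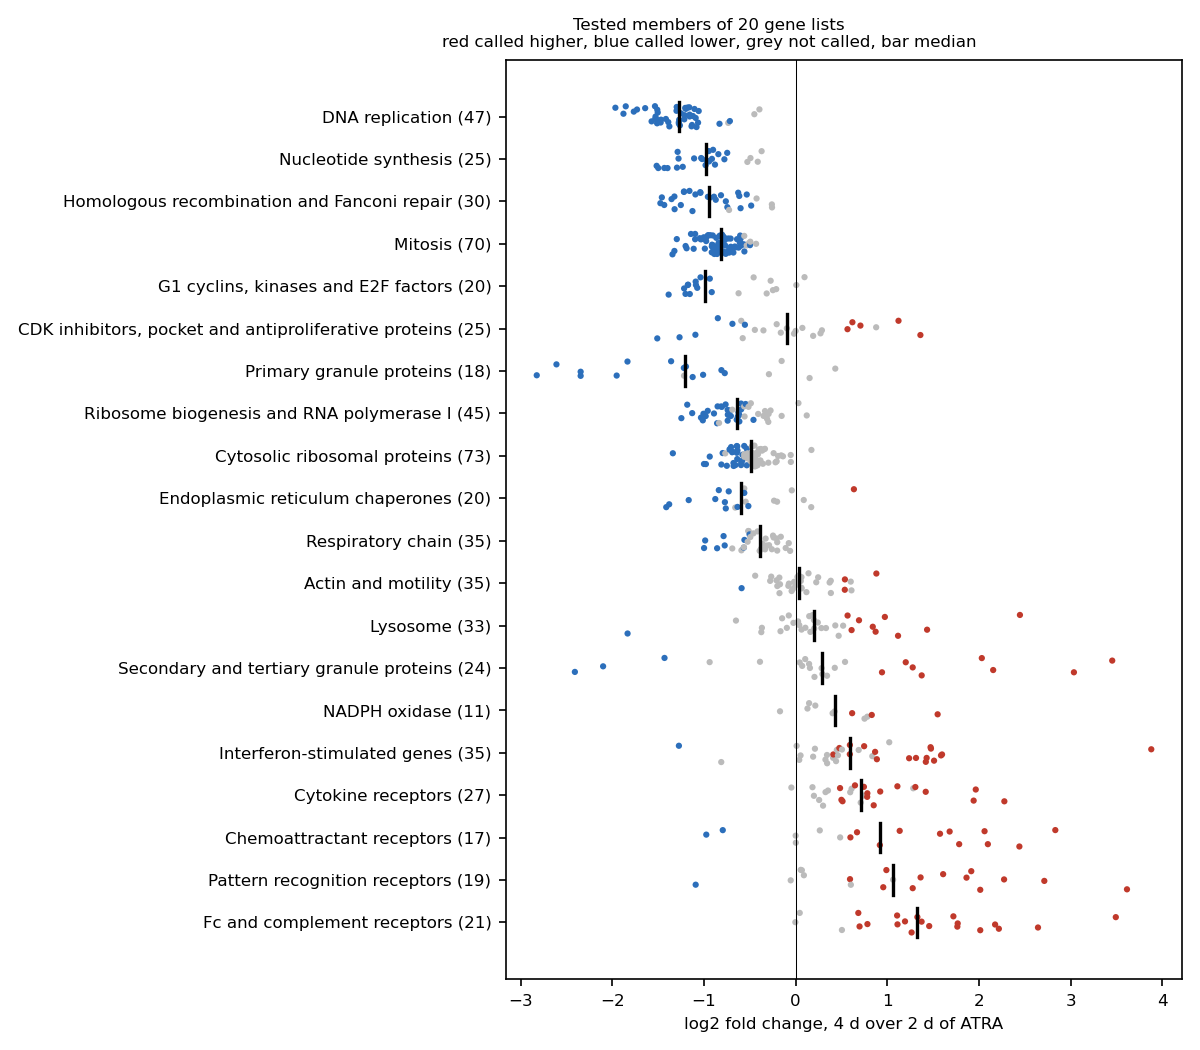
Log2 fold change of 4 d over 2 d for each tested member of 20 gene lists, with the number tested in brackets, red dots for members called higher, blue for members called lower, grey for members not called and a bar at the median. The lists of replication, recombination, nucleotide synthesis and mitosis lie wholly below 0. Most members of the Fc and complement, pattern recognition and chemoattractant receptor lists lie above 0.

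The second 2 days were then set against the first 2 days in the same fit, by testing the change of 4 d over 2 d minus that of 2 d over 0 h. Both changes use the 2 d libraries, with opposite sign, so a high or low 2 d value moves both. The difference was called for 779 of 12671 genes (6.15%), 273 higher (2.15%) and 506 lower (3.99%). Of the mitosis list 33 of 70 members had a lower change in the second 2 days than in the first and 0 a higher one, with a median difference of -1.09. Of DNA replication 20 of 47 were lower and 0 higher, with a median of -1.01. For MKI67 the log2 change was 0.92 ± 0.16 in the first 2 days and -0.76 ± 0.16 in the second, a difference of -1.69 ± 0.27 (SE; edgeR adjusted p = 0.00231). For MCM2 the changes were 0.08 ± 0.21 and -1.85 ± 0.21, a difference of -1.94 ± 0.35 (edgeR adjusted p = 0.00461), and for CDKN2C 1.11 ± 0.19 and -0.85 ± 0.19, a difference of -1.96 ± 0.31 (edgeR adjusted p = 0.00217). These counts depended on single libraries: without 2 d replicates 1, 2 and 3 in turn the count over all genes was 307, 339 and 437. The mitosis count was then 4, 7 and 15, with 21 without 4 d replicate 1 and 17 without 4 d replicate 3, and the DNA replication count 9, 12 and 13. They also depended on the scaling: the mitosis count was 18 with library totals alone and 57 with GC and length offsets, and the DNA replication count 36 with those offsets.

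**Figure D4:**
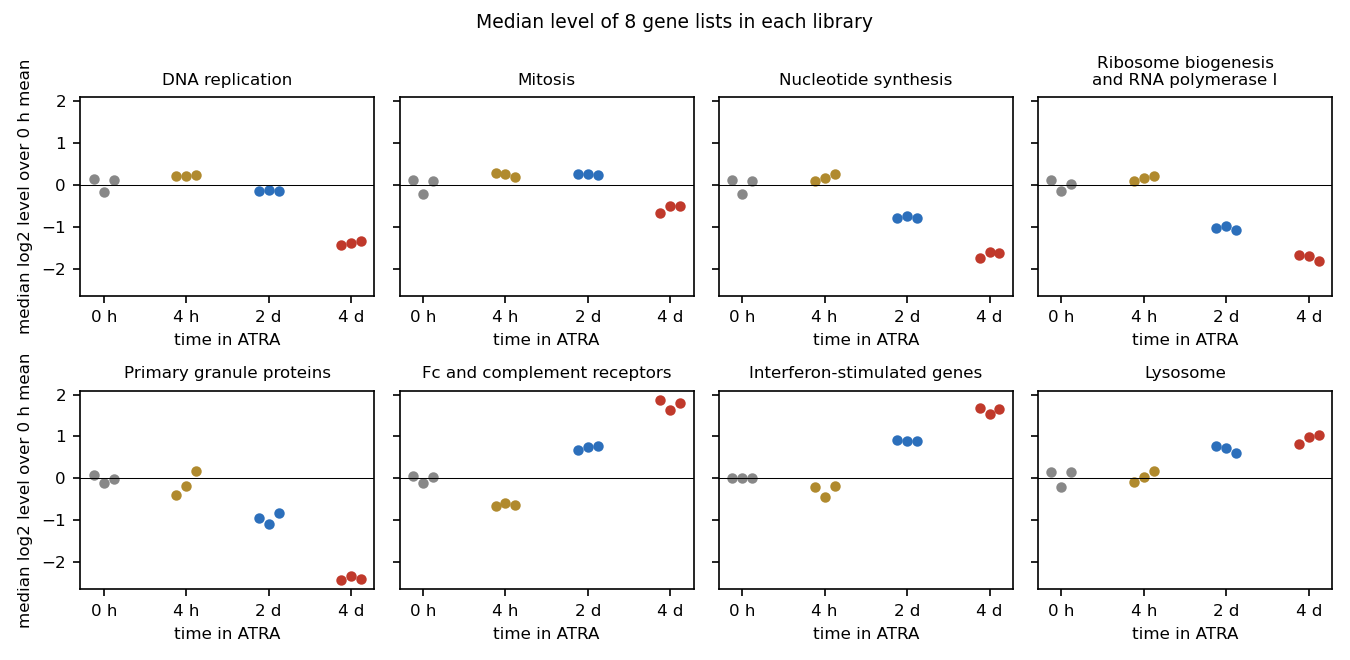
Median over list members of the log2 level relative to the 0 h mean, for 8 lists, with 1 dot per library and time in ATRA on the horizontal axis. DNA replication and mitosis lie near 0 up to 2 d and drop at 4 d (4 d medians of -1.45, -1.40 and -1.34 for replication in replicates 1, 2 and 3). Nucleotide synthesis, ribosome biogenesis and primary granule genes are already below 0 at 2 d.

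Genes of ribosome production fell, in a list whose median log2 change had been -1.11 over the first 2 days, measured against the same 2 d libraries. Of 45 tested genes of ribosome biogenesis and RNA polymerase I, 29 fell and 0 rose, with a median of -0.64. Their summed level was 2450 to 2550 CPM at 4 d, against 3660 to 3860 CPM at 2 d. Without 2 d replicate 2, 22 of them fell. NOLC1, a nucleolar chaperone, had 30.9, 46.9 and 42.6 CPM at 4 d, against 103, 102 and 80.8 CPM at 2 d (-1.25 ± 0.24). POLR1E, a subunit of RNA polymerase I, had 8.52, 8.72 and 9.32 CPM at 4 d, against 20.0, 21.4 and 18.8 CPM at 2 d (-1.18 ± 0.15). The E-box, a site that MYC can bind, stood in the promoters of 14 of 37 members (37.8%), against 7.26% of all promoters and 10.5% of those of genes tested. Among 73 tested ribosomal proteins 30 fell and 0 rose, with a median of -0.49. That count was 11 without 2 d replicate 2, 12 without 2 d replicate 3 and 12 without either 4 d replicate 2 or 4 d replicate 3, and processed copies leave ribosomal protein reads uncertain.

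Amino acid supply and protein folding fell in part. Of 22 tested genes of serine synthesis and the integrated stress response, 2 rose and 9 fell, with a median of -0.35. PSAT1, an enzyme of serine synthesis, had 5.61, 6.15 and 8.10 CPM at 4 d, against 24.7, 24.1 and 22.3 CPM at 2 d (-1.83 ± 0.24). PHGDH, the entry enzyme of that pathway, had 13.1, 9.81 and 10.6 CPM at 4 d, against 33.6, 37.1 and 33.1 CPM at 2 d (-1.63 ± 0.21). The amino acid transporter SLC7A5 had 21.1, 26.2 and 26.2 CPM at 4 d, against 95.6, 76.0 and 65.2 CPM at 2 d (-1.69 ± 0.20). Every 4 d library of these 3 genes lay well below every 2 d library. Of 20 tested endoplasmic reticulum chaperones, 11 fell and 1 rose, with a median of -0.60; 6 fell without 2 d replicate 2, and 7 without 2 d replicate 1 or 4 d replicate 1. XBP1, the factor of the unfolded protein response, had 36.0, 42.8 and 44.4 CPM at 4 d, against 101, 107 and 112 CPM at 2 d (-1.38 ± 0.16). CALR, calreticulin, had 369, 521 and 539 CPM at 4 d, against 1053, 1173 and 982 CPM at 2 d (-1.17 ± 0.24). P4HB, a disulfide isomerase, had 2086, 2197 and 2321 CPM at 4 d, against 4150, 4148 and 3823 CPM at 2 d (-0.88 ± 0.17) and was 1 of the 5 genes that lost the largest share of all gene reads. In the 3 genes named every 4 d library was below every 2 d library. In glycolysis 9 of 29 tested members fell and 4 rose: ENO1, enolase, had 946, 1076 and 1097 CPM at 4 d, against 2439, 2537 and 2115 CPM at 2 d (-1.19 ± 0.19). HK2, a hexokinase, had 162, 210 and 192 CPM at 4 d, against 66.7, 58.7 and 50.6 CPM at 2 d (1.68 ± 0.18). The glucose transporter SLC2A3 had 81.9, 109 and 95 CPM at 4 d, against 33.2, 31.5 and 23.8 CPM at 2 d (1.69 ± 0.19). Enolase was thus lower, and hexokinase 2 and the transporter higher, in every 4 d library than in any of 2 d. Of 35 tested respiratory chain genes 8 fell and 0 rose (22.9% called, against 26.6% of all genes tested). The median was -0.39, all 35 values being below 0. The count of 8 was 3, 2 and 5 without 2 d replicates 1, 2 and 3 in turn, and 4, 5 and 4 without those of 4 d. SDHA, a subunit of succinate dehydrogenase, fell (-1.0 ± 0.17).

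Transcripts of primary granule proteins fell steeply. Of 18 tested members 13 fell and 0 rose, with a median of -1.21, and the summed level was 11300 to 13800 CPM at 4 d, against 35300 to 43400 CPM at 2 d. MPO, myeloperoxidase, had 6946, 8808 and 8624 CPM at 4 d, against 32920, 29210 and 24800 CPM at 2 d, a log2 fold change of -1.83 ± 0.22 (SE; edgeR adjusted p = 9.43e-05). It held 0.652%, 0.948% and 0.903% of gene reads in 4 d replicates 1, 2 and 3, and 3.33%, 2.96% and 2.56% in those of 2 d. At 2 d MPO still stood near its 0 h level of 28000 ± 7009 CPM (SD, n = 3). ELANE, neutrophil elastase, had 111, 76.2 and 85.3 CPM at 4 d, against 490.4, 411 and 483 CPM at 2 d (-2.35 ± 0.32), after 0 h levels of 2475 ± 1080 CPM, and PRSS57, neutrophil serine protease 4, 9.04, 6.05 and 7.06 CPM at 4 d, against 41.2, 33.5 and 37.8 CPM at 2 d (-2.35 ± 0.31). SRGN, the proteoglycan that packs granule proteins, had 880, 1678 and 1575 CPM at 4 d, against 3062, 3600 and 2959 CPM at 2 d (-1.22 ± 0.30), with 4 d replicate 1 the lowest.

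Secondary and tertiary granule genes split. Of 24 tested members 8 rose and 3 fell, with a median of 0.29. SLC11A1, a metal transporter of phagosomes, had 48.9, 35 and 33.8 CPM at 4 d, against 6.68, 8.70 and 11.2 CPM at 2 d (2.16 ± 0.29). MMP9, gelatinase B, had 2.49, 2.08 and 2.35 CPM at 4 d, against 0.514, 0.151 and 0.123 CPM at 2 d (3.04 ± 0.44), a gene with few reads at 2 d. STEAP4, a metalloreductase, had 4.16, 8.03 and 6.88 CPM at 4 d, against 0.77, 0.53 and 0.369 CPM at 2 d (3.46 ± 0.65). FCN1, ficolin 1, fell, with 1.14, 2.88 and 2.44 CPM at 4 d, against 12.9, 12.6 and 8.99 CPM at 2 d (-2.41 ± 0.29). The levels of these 4 genes did not overlap between the times, but those of MMP9 and STEAP4 rest on few reads. CEBPE, the factor that turns on secondary granule genes, had 1055, 919 and 985 CPM at 4 d, against 1196, 1131 and 1020 CPM at 2 d and was not called (-0.18 ± 0.24, edgeR adjusted p = 0.619). CRISP3 had 0 reads in all 6 libraries, and CD177 had 1 read at 4 d and 0 at 2 d.

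Of 33 tested lysosomal genes 9 rose and 1 fell (30.3% called, against 26.6% of all genes tested), with a median of 0.20. Their summed level was 29400 to 32800 CPM at 4 d, against 19000 to 21900 CPM at 2 d. Most of that sum was CTSD, the protease cathepsin D, which had 23660, 19240 and 21200 CPM at 4 d, against 12000, 10180 and 10450 CPM at 2 d, a log2 fold change of 0.97 ± 0.26 (SE; edgeR adjusted p = 0.0134) and the largest gain in share of gene reads of all genes. GAA, acid alpha-glucosidase, had 234, 144 and 159 CPM at 4 d, against 36.5, 29.8 and 32.3 CPM at 2 d (2.45 ± 0.26). TFEB, a transcription factor of lysosomal genes, had 149, 100.2 and 112 CPM at 4 d, against 58.9, 53.2 and 54.4 CPM at 2 d (1.12 ± 0.23). LIPA, lysosomal acid lipase, fell, with 1.25, 2.08 and 3.05 CPM at 4 d, against 8.05, 7.41 and 7.63 CPM at 2 d (-1.83 ± 0.35). Without 2 d replicate 3, or without 4 d replicate 3, 5 members were called higher in place of 9.

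Of 11 tested members of the phagocyte oxidase, which makes superoxide, 3 rose and 0 fell, with a median of 0.425. The share called was 27.3%, against 26.6% of all genes tested, of which 13.1% were higher. CYBB, the catalytic gp91phox subunit, had 1131, 1508 and 1367 CPM at 4 d, against 791, 798 and 661 CPM at 2 d, a log2 fold change of 0.83 ± 0.19 (SE; edgeR adjusted p = 0.00714). Of 19 tested integrins and adhesion molecules 7 rose and 1 fell, with a median of 0.13. ITGAM, the CD11b chain of complement receptor 3 and a marker of myeloid maturation, had 390.4, 394 and 399.5 CPM at 4 d, against 169, 162 and 153 CPM at 2 d, a log2 fold change of 1.29 ± 0.14 (SE; edgeR adjusted p = 4.78e-05) with little spread within either time. ITGAX, the CD11c chain, had 437, 219 and 229 CPM at 4 d, against 76.6, 83.5 and 118 CPM at 2 d (1.67 ± 0.33), the replicate 1 library standing far above the other 2 of 4 d. ITGB7, an integrin beta chain, had 334, 337 and 354 CPM at 4 d, against 160, 163 and 154 CPM at 2 d (1.10 ± 0.17).

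The list of Fc and complement receptors, which also holds leukocyte immunoglobulin-like receptors (LILR) such as LILRA5 and LILRB3, rose as a group. Of its 21 tested members 18 rose and 0 fell, with a median of 1.33. The count is therefore not one of receptors for antibodies and complement alone. Their summed level was 2370 to 2530 CPM at 4 d, against 982 to 1010 CPM at 2 d. The count of 18 was 16 without 4 d replicate 1 and 15 without 2 d replicate 2. CR1, the receptor for C3b, had 158, 269.6 and 236 CPM at 4 d, against 53.6, 45.0 and 44.0 CPM at 2 d (2.22 ± 0.22). LILRA5, an activating leukocyte receptor, had 394, 378 and 383 CPM at 4 d, against 88.6, 85.9 and 81.0 CPM at 2 d (2.18 ± 0.15). The inhibitory receptor LILRB3 had 117, 64.0 and 68.5 CPM at 4 d, against 10.9, 13.7 and 15.4 CPM at 2 d (2.65 ± 0.28). The 4 d libraries were close together for LILRA5 and spread for CR1 and LILRB3, with replicate 1 at opposite ends of the last 2. FCGR2C, an IgG receptor, had 10.6, 12.1 and 12.9 CPM at 4 d, against 0.942, 0.53 and 1.85 CPM at 2 d (3.49 ± 0.36). Reads of the FCGR2 genes, and of the LILR genes, can be shared within each family, so single members are uncertain.

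Receptors for chemoattractants, microbial patterns and cytokines were called higher at 4 d more often than lower. Of 17 tested chemoattractant receptors 11 rose and 2 fell, with a median of 0.92; 7 rose without 2 d replicate 3. FPR1, the formyl peptide receptor, had 21.7, 26.9 and 23.0 CPM at 4 d, against 5.57, 6.13 and 4.92 CPM at 2 d (2.1 ± 0.19). CCR3, the eotaxin receptor, had 249, 221 and 224 CPM at 4 d, against 49.1, 59.8 and 57.4 CPM at 2 d (2.06 ± 0.20). HCAR2, the niacin receptor, had 4.88, 7.73 and 6.62 CPM at 4 d, against 1.37, 0.832 and 0.369 CPM at 2 d (2.83 ± 0.38), with reads that can be shared with HCAR3. Of 19 tested pattern recognition receptors 12 rose and 1 fell, with a median of 1.06. Without 2 d replicate 1, 8 of them rose. CLEC7A, the glucan receptor dectin-1, had 70.8, 71.6 and 78.5 CPM at 4 d, against 5.22, 6.28 and 6.53 CPM at 2 d (3.62 ± 0.21). CLEC4A, an inhibitory lectin receptor, had 23.4, 22.6 and 20.3 CPM at 4 d, against 2.57, 3.93 and 3.57 CPM at 2 d (2.71 ± 0.22). TLR8, a sensor of single-stranded RNA, had 6.96, 15.1 and 12.2 CPM at 4 d, against 3.17, 3.40 and 1.72 CPM at 2 d (2.02 ± 0.33). The times did not overlap in any of these 6 receptors. Of 27 tested cytokine receptors 15 rose and 0 fell, with a median of 0.71. CSF3R, the receptor of granulocyte colony-stimulating factor, had 3387, 1719 and 1931 CPM at 4 d, against 899.6, 816 and 914 CPM at 2 d (1.42 ± 0.31). IL18R1, a receptor chain for interleukin-18, had 21.0, 20.2 and 19.0 CPM at 4 d, against 3.34, 4.31 and 4.80 CPM at 2 d (2.28 ± 0.24). CSF1R, the receptor of macrophage colony-stimulating factor, had 60.9, 67.8 and 63.1 CPM at 4 d, against 19.0, 15.1 and 15.8 CPM at 2 d (1.94 ± 0.16).

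**Figure D5:**
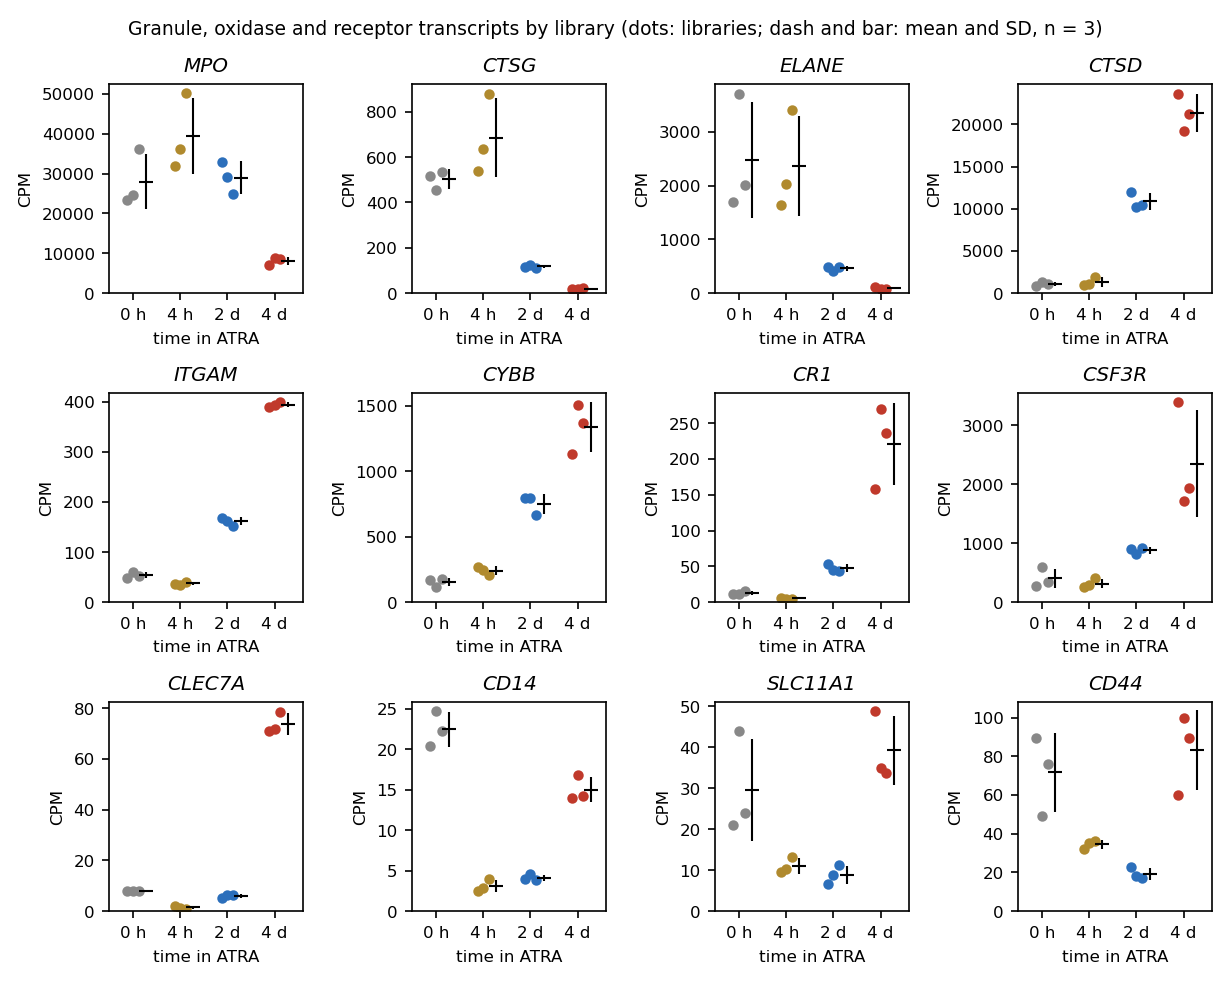
CPM of 12 granule, oxidase and receptor genes in each of the 12 libraries by time in ATRA, with dots for libraries and the dash and bar for the mean and SD of 3. MPO, CTSG and ELANE are lowest at 4 d, CTSD, ITGAM, CYBB, CR1 and CSF3R highest; CD14, SLC11A1 and CD44 are lower at 4 h and 2 d than at 0 h and higher again at 4 d, and CLEC7A is far higher at 4 d than at any other time.

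Several genes had been lower at 2 d than at 0 h and were higher again at 4 d. CD14, the co-receptor for lipopolysaccharide, had 14.0, 16.9 and 14.2 CPM at 4 d, against 3.94, 4.54 and 3.82 CPM at 2 d, after 22.5 ± 2.17 CPM at 0 h (SD, n = 3). Its log2 change was -2.45 ± 0.20 in the first 2 days and 1.86 ± 0.20 in the second, a difference of 4.31 ± 0.36 (SE; edgeR adjusted p = 1.2e-05). CD44, the hyaluronan receptor, had 60.1, 99.6 and 89.6 CPM at 4 d, against 22.9, 17.9 and 17.2 CPM at 2 d, after 71.6 ± 20.4 CPM at 0 h (3.98 ± 0.44, edgeR adjusted p = 0.000116 for the difference). SLC11A1 stood at 29.6 ± 12.5 CPM and MMP9 at 2.58 ± 0.53 CPM at 0 h, with differences of 3.91 ± 0.53 (edgeR adjusted p = 0.000675) and 6.23 ± 0.80 (edgeR adjusted p = 0.000416). Others kept rising but by less than before: for LILRA5 the changes were 4.27 ± 0.17 and 2.18 ± 0.15 (-2.10 ± 0.25, edgeR adjusted p = 0.000214 for the difference), for ITGB7 3.88 ± 0.20 and 1.10 ± 0.17 (-2.77 ± 0.29, edgeR adjusted p = 8.15e-05), and for CTSD 3.35 ± 0.28 and 0.97 ± 0.26 (-2.38 ± 0.43, edgeR adjusted p = 0.00465).

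Among tested markers of monocytes and macrophages more rose than fell. This list is not independent of the receptor lists. FCGR3A, which was below the filter, stands both in it and in the Fc and complement list. Tested members may be shared too, since the lowest log2 fold change was -0.974 both in it and among the chemoattractant receptors. Its counts are therefore not separate from those of the receptors. Of 22 symbols 12 passed the filter, and 8 of them rose and 1 fell, with a median of 1.28 and a summed level of 3680 to 4120 CPM at 4 d, against 2160 to 2830 CPM at 2 d. CD36, a scavenger receptor, had 66.2, 82.4 and 80.5 CPM at 4 d, against 6.85, 6.58 and 7.14 CPM at 2 d (3.48 ± 0.29). MERTK, a receptor kinase for apoptotic cells, had 62.6, 55.2 and 60.5 CPM at 4 d, against 11.5, 11.7 and 13.5 CPM at 2 d (2.28 ± 0.19). Both were higher in each 4 d library than in each 2 d library. The listed markers MRC1, MSR1, VCAN and C1QB had 0 reads in all 6 libraries, and CD163 had 0 reads at 4 d and 1 at 2 d. The part of these markers in the receptor results was not tested. Of 11 tested eosinophil, basophil and mast cell markers 2 rose and 3 fell: CLC, galectin-10, had 155, 216 and 195 CPM at 4 d, against 68.7, 88.2 and 72.3 CPM at 2 d (1.30 ± 0.17). RNASE2, an eosinophil ribonuclease, had 25.6, 25.1 and 28.8 CPM at 4 d, against 60.4, 74.8 and 68.5 CPM at 2 d (-1.36 ± 0.17). Of 5 tested lymphoid markers CD3E rose, at 6.65, 4.56 and 7.32 CPM at 4 d, against 1.71, 1.29 and 1.35 CPM at 2 d (2.08 ± 0.35), and of 4 tested erythroid and megakaryocyte markers ITGA2B fell (-1.13 ± 0.26).

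Interferon-stimulated genes rose in 17 of 35 tested members and fell in 1, with a median of 0.59; 10 rose without 2 d replicate 1 or 2 d replicate 2, and 11 without 4 d replicate 3. IFITM2, which blocks viral entry, had 148, 84.2 and 97.7 CPM at 4 d, against 35.4, 39.5 and 40.8 CPM at 2 d (1.51 ± 0.28), with reads that can be shared with IFITM1 and IFITM3. XAF1, a protein that promotes apoptosis, had 15.2, 10.3 and 8.80 CPM at 4 d, against 4.02, 4.39 and 2.83 CPM at 2 d (1.59 ± 0.28). Other genes of this list were near the limit of detection: IFI44L had 1 read over the 4 d libraries and 2 over those of 2 d, and OAS2 had 2 and 1. Of 23 tested cytokines and chemokines 8 rose and 0 fell (34.8% called, against 26.6% of all genes tested), with a median of 0.66. Without 2 d replicate 1, 6 were called higher. IL1B, interleukin-1 beta, had 5.71, 8.53 and 6.97 CPM at 4 d, against 1.46, 1.36 and 1.85 CPM at 2 d (2.20 ± 0.34). CXCL16, a transmembrane chemokine, had 23.1, 27.0 and 25.8 CPM at 4 d, against 9.25, 6.66 and 7.88 CPM at 2 d (1.67 ± 0.22).

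Of 22 tested genes of the retinoic acid response 7 rose and 0 fell (31.8% called, against 26.6% of all genes tested). Their median was 0.34. Over the first 2 days their median log2 change had been 1.51, measured against the same 2 d libraries. The change in the second 2 days was called lower than in the first for 9 members and higher for 1. The median difference was -1.26, and over all genes tested 3.99% were called lower and 2.15% higher. CYP26A1, the enzyme that breaks down retinoic acid, had 47.9, 42.9 and 46.0 CPM at 4 d, against 3.17, 3.93 and 1.6 CPM at 2 d (3.93 ± 0.26, edgeR adjusted p = 5.97e-06) and no read at 0 h. DHRS3, which reduces retinaldehyde, had 169, 122 and 137 CPM at 4 d, against 74.8, 75.7 and 78.8 CPM at 2 d (0.90 ± 0.21). ASB2, a ubiquitin ligase subunit induced by retinoids, had 324, 227 and 222 CPM at 4 d, against 101, 77.7 and 90.4 CPM at 2 d (1.52 ± 0.22). CD38, an ectoenzyme induced by ATRA, had 54.5, 103 and 93.0 CPM at 4 d, against 135, 123 and 103 CPM at 2 d; its groups overlapped and its value of -0.53 ± 0.25 was not called (edgeR adjusted p = 0.139). PTGES, which makes prostaglandin E2, had 201, 234 and 232 CPM at 4 d, against 53.3, 61.0 and 51.3 CPM at 2 d (2.01 ± 0.18) and also no read at 0 h.

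Among 41 tested myeloid transcription factors 10 rose and 10 fell, with a median of -0.21. ID1, which keeps helix-loop-helix partners off DNA, fell, with 3.53, 3.07 and 2.70 CPM at 4 d, against 12.1, 10.1 and 13.7 CPM at 2 d (-1.94 ± 0.34). EGR1, an immediate early factor, had 16.0, 19.9 and 15.8 CPM at 4 d, against 4.37, 4.54 and 5.91 CPM at 2 d (1.81 ± 0.25). FOS, a subunit of AP-1, had 47.4, 41.4 and 38.8 CPM at 4 d, against 13.9, 14.5 and 13.7 CPM at 2 d (1.6 ± 0.17). The times did not overlap in any of the 3 factors. Of 32 tested apoptosis genes 8 rose and 2 fell (31.2% called, against 26.6% of all genes tested), with a median of 0.16. The count of 8 was 3, 2 and 4 without 2 d replicates 1, 2 and 3 in turn, and 5 without 4 d replicate 1. BCL2, an inhibitor of apoptosis, had 7.27, 8.92 and 10.4 CPM at 4 d, against 22.9, 21.6 and 18.2 CPM at 2 d (-1.23 ± 0.17). BCL2A1, its relative, had 179, 145 and 155 CPM at 4 d, against 43.4, 53.3 and 57.0 CPM at 2 d (1.64 ± 0.17).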

How the data were processed

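Whole-number read counts per gene were deposited for each of the 12 libraries. Per the submitters' processing notes, FastQC, Trim Galore 0.6.7, HISAT2 2.1.0 and HTSeq 1.99.2 were used with the hg19 build; the strand setting, kit and annotation were not given in the sources used here, so reads of overlapping and antisense genes cannot be told apart, and reads with several alignments were not counted in genes. The 5 classes of unassigned reads in the deposited counts stayed out of library sizes; the largest, reads outside genes, held 21.22% to 23.25% of reads at 4 d and 17.11% to 21.62% at 2 d. The counts of 4 groups of 3 libraries were fitted together with edgeR 4.0.16 (R 4.3.3; TMM factors, filterByExpr, quasi-likelihood test, 1 mean per time, 8 residual degrees of freedom), and p-values were adjusted by Benjamini-Hochberg over all 12671 genes tested, with calls at an adjusted p under 0.05. The test was also run on simulated counts with known changes, where it missed some changed genes and made few false calls. The simulation held no GC trend and no library that stood apart, so it does not measure errors in these data. Libraries of 1 time differed by more than sampling noise, with a chi-square per degree of freedom of 3.47 to 54.7 at 4 d and 7.02 to 12.7 at 2 d, so each counted as 1 sample. Alternatives were RLE factors, library totals, other filters, DESeq2 1.42.0, limma-voom (limma 3.58.1), the 6 libraries alone, the replicate number as a block, each library left out, and offsets for GC content and length, known for 92.9% of genes. The 40 gene lists and the step itself were chosen with earlier results of these data known. The named genes, 185 in all of which the text gives some, were the 10 largest rises and falls at a mean of 10 CPM or more with no overlap, the 5 largest gains and losses of read share, the called members with the largest changes of each list (up to 8 for replication, mitosis and CDK inhibitors, up to 4 for the others), 13 fixed genes and the 5 largest differences in each direction between the second and first 2 days. List members with too few reads to test, such as IFI44L, were named after their values were seen. Promoters are RefSeq sequences on GRCh38.p14, matched by symbol for 10054 of the genes tested.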

Additional observations from a re-analysis of the deposited data

Results flagged for a closer look

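The change in the second 2 days of ATRA differed from that in the first 2 days, by edgeR's quasi-likelihood test of the difference itself, for 779 genes. Among them were 33 of the 70 tested mitosis genes and 20 of the 47 tested DNA replication genes, all of these lower in the second 2 days. Both changes share the 2 d libraries. Reads that fell outside the annotated genes, which no comparison used, made up 22.2% ± 1.02 of the reads at 4 d, against 18.8% ± 2.49 at 2 d and 19.1% ± 1.64 at 0 h (SD, n = 3 each).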

How the results depend on the processing

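Of the 176 named genes called between 4 d and 2 d, 154 were called under every one of the 18 alternatives that tested them and 22 lost the call, all 22 when 1 library was left out (14 without 4 d replicate 1, 12 with the replicate block, 0 with GC and length offsets). These genes were mostly picked for large changes in these same data, so their share does not stand for all calls. Of all 3374 calls, 2089 to 2662 were kept with 1 library of 4 d or 2 d left out. Of the called named genes, 0 changed sign. The values that changed sign were of 3 genes not called: CDKN1A (-0.012 without 2 d replicate 1 and -0.048 without 4 d replicate 3; -0.048 to 0.387 with 1 library left out), CDKN1B (0.053 without 4 d replicate 1, 0.081 with GC and length offsets besides, 0.0596 without the 3 libraries with the steepest GC slopes; -0.205 to 0.053) and CDKN2D (-0.099 with GC and length offsets, -0.082 without 4 d replicate 1, -0.12 with both, -0.073 without those 3 libraries; -0.082 to 0.184); the cause was not tested. The count of 3374 genes ranged from 2110 to 2798 with 1 library left out (1015 to 1434 higher, 1095 to 1380 lower), was 4666 with GC and length offsets, and was 5549 without the 3 libraries with the steepest GC slopes (2741 higher, 2808 lower), an alternative chosen after seeing the data. Calls that were higher made up 44.9% to 52.2% under the alternatives, against 49.2%. The difference between the second and first 2 days moved more, from 779 genes (273 higher, 506 lower) to 1496 with no filter (664 higher, 832 lower), 1197 with DESeq2 (519 higher), 1545 with GC and length offsets (616 higher, 929 lower), 1448 with these offsets and without 4 d replicate 1 (526 higher, 922 lower, also chosen after seeing the data), 2374 without the 3 libraries (976 higher, 1398 lower), and 307 to 789 with 1 library left out (104 to 294 higher, 203 to 495 lower). The replicate block gave 2536 genes for 4 d against 2 d (1247 higher, 1289 lower) and 420 for the difference (137 higher, 283 lower). Deviations of same-numbered 4 d and 2 d libraries correlated at -0.333, 0.218 and -0.464, and 0 libraries correlated best with their own number. These values cannot tell whether the numbers pair the samples. They are deviations from means of 3 libraries, and 4 d replicate 1 stood apart by GC content. With the block the ribosomal protein count was 16, the interferon count 11, the respiratory chain count 4, and the second-minus-first counts of mitosis and DNA replication 13 and 12. The NADPH oxidase count of 3 was 5 to 6 with library totals, no filter, DESeq2, the 6 libraries alone or GC and length offsets. With 3 libraries a time, changes small against a spread of 22% at 4 d were not detectable.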

Other observations

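Immediate early and heat shock genes split between 4 d and 2 d: of 22 tested members 7 were called higher and 3 lower at 4 d, with a median log2 fold change of 0.085. The inducible chaperone HSPA6 had 26.3, 11.1 and 13.2 CPM at 4 d, against 3.51, 3.10 and 4.43 CPM at 2 d (2.21 ± 0.38, SE), and its reads can be shared with the pseudogene HSPA7. The early growth response factor EGR2 was called at low levels, with 2.29, 1.59 and 2.79 CPM at 4 d, against 0.599, 0.303 and 0.862 CPM at 2 d (1.97 ± 0.46). Without 4 d replicate 1 the counts were 5 higher and 2 lower.

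Of 12 tested members of the heme list 1 rose and 2 fell, with a median of -0.15; over all genes tested 13.1% were called higher and 13.5% lower. HMOX1, heme oxygenase, rose, with 5.61, 4.96 and 4.79 CPM at 4 d, against 0.685, 1.82 and 0.739 CPM at 2 d (2.18 ± 0.38). TFRC, the transferrin receptor, fell, with 62.3, 99.7 and 91.5 CPM at 4 d, against 203, 189 and 149 CPM at 2 d (-1.09 ± 0.25). ALAS1, the first enzyme of heme synthesis, fell, with 329, 328 and 338 CPM at 4 d, against 529.7, 546 and 536 CPM at 2 d (-0.70 ± 0.14). For ALAS1 the change in the second 2 days minus that in the first was -2.04 ± 0.23 (edgeR adjusted p = 0.000149). In the list of cholesterol synthesis and uptake 3 of 28 tested members rose and 2 fell (17.9% called, against 26.6% of all genes tested). The median was -0.036. The cholesterol exporter ABCA1 had 43.5, 69.3 and 62.8 CPM at 4 d, against 25.6, 17.6 and 18.5 CPM at 2 d (1.51 ± 0.32). Of 20 tested aminoacyl-tRNA synthetases 6 fell and 1 rose (35% called, against 26.6% of all genes tested). Their median was -0.27, and 3 fell without 2 d replicate 2. IARS, for isoleucine, had 49.6, 42.6 and 43.9 CPM at 4 d, against 84.8, 83.9 and 81.9 CPM at 2 d (-0.88 ± 0.17). Of 15 tested genes of antigen presentation 2 rose and 0 fell (13.3% called, against 26.6% of all genes tested), with a median of 0.021. The invariant chain CD74 had 26.6, 30.2 and 32.3 CPM at 4 d, against 11.8, 12.3 and 11.8 CPM at 2 d (1.31 ± 0.22). Of 35 tested actin and motility genes 3 rose and 1 fell (11.4% called, against 26.6% of all genes tested), with a median of 0.035. The count of 3 was 0 without 2 d replicate 1 or 2 d replicate 3, and 1 without 2 d replicate 2, 4 d replicate 1 or 4 d replicate 3.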
